A study of Mus musculus with 2 samples.

Results

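The 40 genes described here encode the machinery of G2 and mitosis, and they were followed in E14.5 fetal liver (FL) LSK CD48- cells with and without endothelial cell-selective adhesion molecule (ESAM). They were chosen by name, from what is known of their function, out of 23284 genes listed in the data, and all 40 were found. Earlier results of these data were known when they were chosen. The LSK CD48- gate (lineage marker-negative, Sca-1-positive, c-Kit-positive and CD48-negative) enriches hematopoietic stem cells (HSCs). The study has 1 library from wild-type (WT) fetuses and 1 library from ESAM-null fetuses, which carry the Esam mutation in the germline. The sources used here do not give how many fetuses or cells went into each library.

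A cell in G2 accumulates cyclin A and cyclin B, which activate the kinase Cdk1 and drive the cell into mitosis. The spindle then captures chromosomes at their kinetochores, a checkpoint holds the cell until all are attached, and the anaphase promoting complex marks securin and cyclin B for destruction. The fetal liver is where HSCs expand before birth, and unlike most adult HSCs many of them cycle.

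Most genes of this kind peak together in G2 and mitosis, and their promoters are known to carry a CCAAT box, bound by NF-Y, and a cell cycle genes homology region (CHR), bound by the MuvB complexes with B-Myb and FoxM1. The windows below show how these letters lie in 4 of the genes. They are the genes with the highest mean level in their role that carried both motifs before the RefSeq start. For the other 3 roles no gene qualified. Sequences are from RefSeq (GRCm38.p6, the mm10 assembly), written in the direction of transcription. Capitals mark TTTGAA or TTCGAA (the CHR letters searched) and CCAAT, on either strand. Ccnb2 (cyclin B2) is shown at chr9:70421555-70421731, minus strand. Ube2c, the ubiquitin-conjugating enzyme of the anaphase promoting complex, is shown at chr2:164769691-164769917, plus strand. Prc1, which bundles midzone microtubules, is shown at chr7:80294404-80294469, plus strand. Top2a, the topoisomerase that untangles sister chromatids, is shown at chr11:99024190-99024426, minus strand. A further CHR match of Ccnb2, at base 5 after the RefSeq start, lies outside the printed stretch. In Ube2c and Prc1 the CHR letters lie at or past the gene start annotated by GENCODE, which differs from the RefSeq start.
Ccnb2: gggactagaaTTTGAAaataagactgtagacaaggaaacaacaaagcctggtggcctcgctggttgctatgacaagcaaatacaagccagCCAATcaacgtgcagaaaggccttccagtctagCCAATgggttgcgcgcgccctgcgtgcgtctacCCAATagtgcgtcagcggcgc
Ube2c: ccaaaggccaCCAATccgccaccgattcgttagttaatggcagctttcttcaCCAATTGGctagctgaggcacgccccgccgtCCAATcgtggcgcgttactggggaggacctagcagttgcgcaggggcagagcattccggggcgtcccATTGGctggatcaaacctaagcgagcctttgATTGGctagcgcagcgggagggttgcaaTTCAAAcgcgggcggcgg
Prc1: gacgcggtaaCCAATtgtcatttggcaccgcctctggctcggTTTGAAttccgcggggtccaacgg
Top2a: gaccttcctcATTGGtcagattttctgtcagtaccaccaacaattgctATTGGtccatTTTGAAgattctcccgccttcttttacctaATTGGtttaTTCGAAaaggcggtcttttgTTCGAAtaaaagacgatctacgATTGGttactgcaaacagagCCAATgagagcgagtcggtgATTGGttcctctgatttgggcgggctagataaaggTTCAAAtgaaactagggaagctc

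RefSeq windows of 300 bases, from 250 before to 50 after the start, were matched for 33 of the 40 genes and gave 35 windows. The CHR letters were found in 28 of the 35 (80%), against 19.2% of 32851 windows of all genes. CCAAT was found in 30 (85.7%), against 37.4% of all windows. Both were found in 27 (77.1%), against 7.52% of all windows. In the 150 bases before the start alone the shares were lower, at 42.9% for the CHR letters (9.70% of all windows) and 37.1% for both (2.43%). Counted by gene, 25 of the 33 had both and 4 had neither, namely Birc5, Mad2l1, Nusap1 and Pttg1. CCAAT matches came in series in 16 genes. Of 30 neighbouring pairs on the same side of the start, counted by window so that 1 Ect2 pair enters from both of its overlapping windows, 7 lay 30 to 34 bases apart, and in Ccnb2, printed above, both neighbouring pairs were 33 bases apart. In Ube2c the capitals CCAATTGG are overlapping matches on opposite strands. Ccna2, Kif20a, Aurkb, Tpx2, Smc4, Cdc25c and Incenp had no matched window. A match is a description of letters and not a measured binding site.

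**Figure D1:**
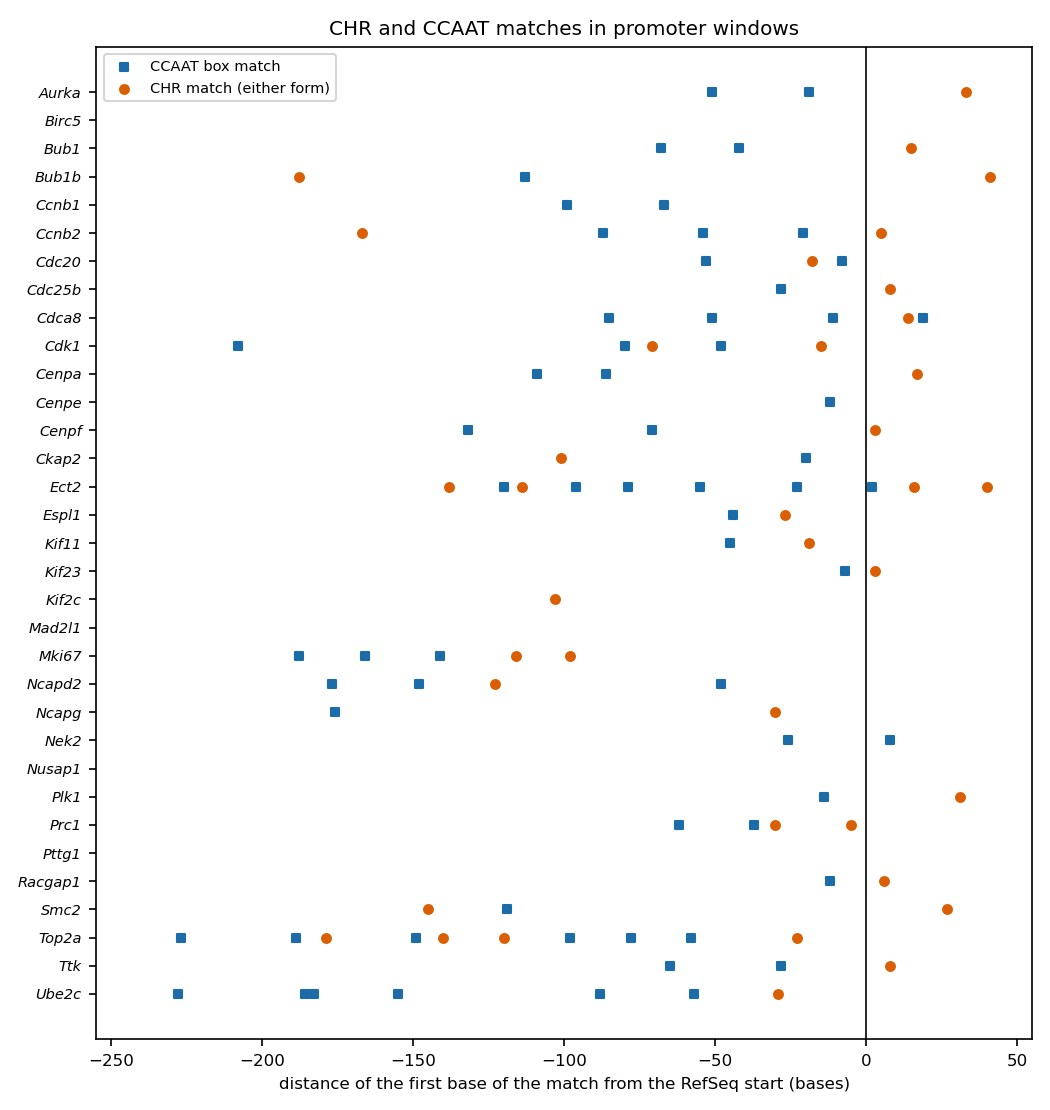
Positions of CHR and CCAAT matches in the promoter windows of the matched genes, as distance from the RefSeq start in bases (horizontal axis), with 1 row per gene. Matches from both windows of Ect2 share a row, as do those of Prc1, each measured from the start of its own window. CCAAT matches were present in 30 of the 35 windows and CHR matches in 28.

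Levels are given as FPKM, reads of a gene scaled by the length of its transcript and by the number of mapped reads, which allows genes to be compared per length. Each fold change is the plain ratio of the 2 libraries. With 1 library per genotype no test of the genotypes was possible, and the 95% exact (Clopper-Pearson) intervals cover counting error only. The intervals rest on read totals recovered from the values, about 9360173 for WT and 10189636 for ESAM-null. These totals carry the scaling of the values, and PCR copies are not separate molecules. Esam itself was 9.69-fold lower in the null library, at 12.1 FPKM against 117.6 FPKM in WT. Whether the remaining Esam reads fall outside the deleted part of the gene was not tested. All 10 markers of the HSC list lay within 2-fold, with summed levels of 954.8 and 927.5 FPKM in WT and ESAM-null. The erythroblast list summed to 109 and 147 FPKM, with Alas2 and Slc4a1 past 2-fold on the lower side and Klf1 on the higher side. Most of that sum was Hbb-b1, at 78.8 and 114.5 FPKM. Hba-a1, below 1 FPKM in both libraries, stood at 0.717 and 0.236 FPKM. Summed levels in WT and ESAM-null were 24.6 and 25.5 FPKM for macrophage genes and 39.7 and 37.1 FPKM for hepatocyte genes. The sums were 24.1 and 16.7 FPKM for endothelial genes, mostly Pecam1 (20.8 and 12.1 FPKM), while Cdh5 stood at 0.954 and 3.33 FPKM. They were 83.9 and 94.7 FPKM for megakaryocyte genes and 16.1 and 23.1 FPKM for B cell genes. Granulocyte genes summed to 249.9 and 256.2 FPKM, and of these Elane and Ctsg were listed at 0 in both. A sum does not show how its single genes moved. Whether a change in cell mixture plays a part in any value was not tested, and in bulk RNA fewer cells of a type and less RNA per cell cannot be told apart.

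The mitotic genes were expressed at nearly the same level in both libraries. All 40 stood at 5 FPKM or more in each, and 34 stood at 10 FPKM or more in each. Of the 40, 39 lay within 2-fold, 0 were lower by 2-fold or more in the ESAM-null library, and 1, Cdc25c, was higher by 2-fold or more. Among 12066 genes at 1 FPKM or more in either library, 12.8% were past 2-fold on the lower side and 7.42% on the higher side. Among the 7321 genes at 10 FPKM or more in either library, the shares were 4.75% and 2.75%. The median log2 ratio of the 40 genes was 0.13, from -0.49 to 1.66, and that of all genes at 10 FPKM or more was 0.08.

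The spread of the 40 genes was narrower than that of all genes of similar level. Their middle quartiles spanned 0.39 on the log2 scale, against 0.66 for 7544 genes with a mean level inside the same range. Within 1.5-fold lay 36 of the 40 (90.0%), against 74.6% of those 7544. By this share some related lists were about as narrow. The share within 1.5-fold was 90.0% for the HSC markers, 88.9% for the p53 and Cdk inhibitor genes and 85.7% for the S phase genes. By the same share, lists of the same processes as the 40 were wider. The share was 68.6% for other kinetochore and centromere genes and 70.6% for other spindle and cytokinesis genes. It was 76.5% for other mitotic entry genes, 78.6% for cohesin and 81.2% for the anaphase promoting complex. Other condensin subunits lay below all of these. The narrow spread is thus that of the 40 chosen genes and not of mitotic genes in general. The order of levels was close to the same in both libraries, with a Spearman rho of 0.96 over the 40 genes. On the deposited scale 27 of the 40 genes were higher and 13 lower in ESAM-null. Of the 7321 genes at 10 FPKM or more in either library, 4100 were higher and 3221 lower on that scale. After both libraries were rescaled to the same total the split of the 40 was 10 and 30. Median scaling gave 25 and 15, and upper-quartile and trimmed mean scaling each gave 28 and 12. The side on which a small ratio falls thus depends on the scaling. Rescaling to the same total also moved the median log2 ratio of 12066 genes to -0.28, against -0.15 for the 40.

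**Figure D2:**
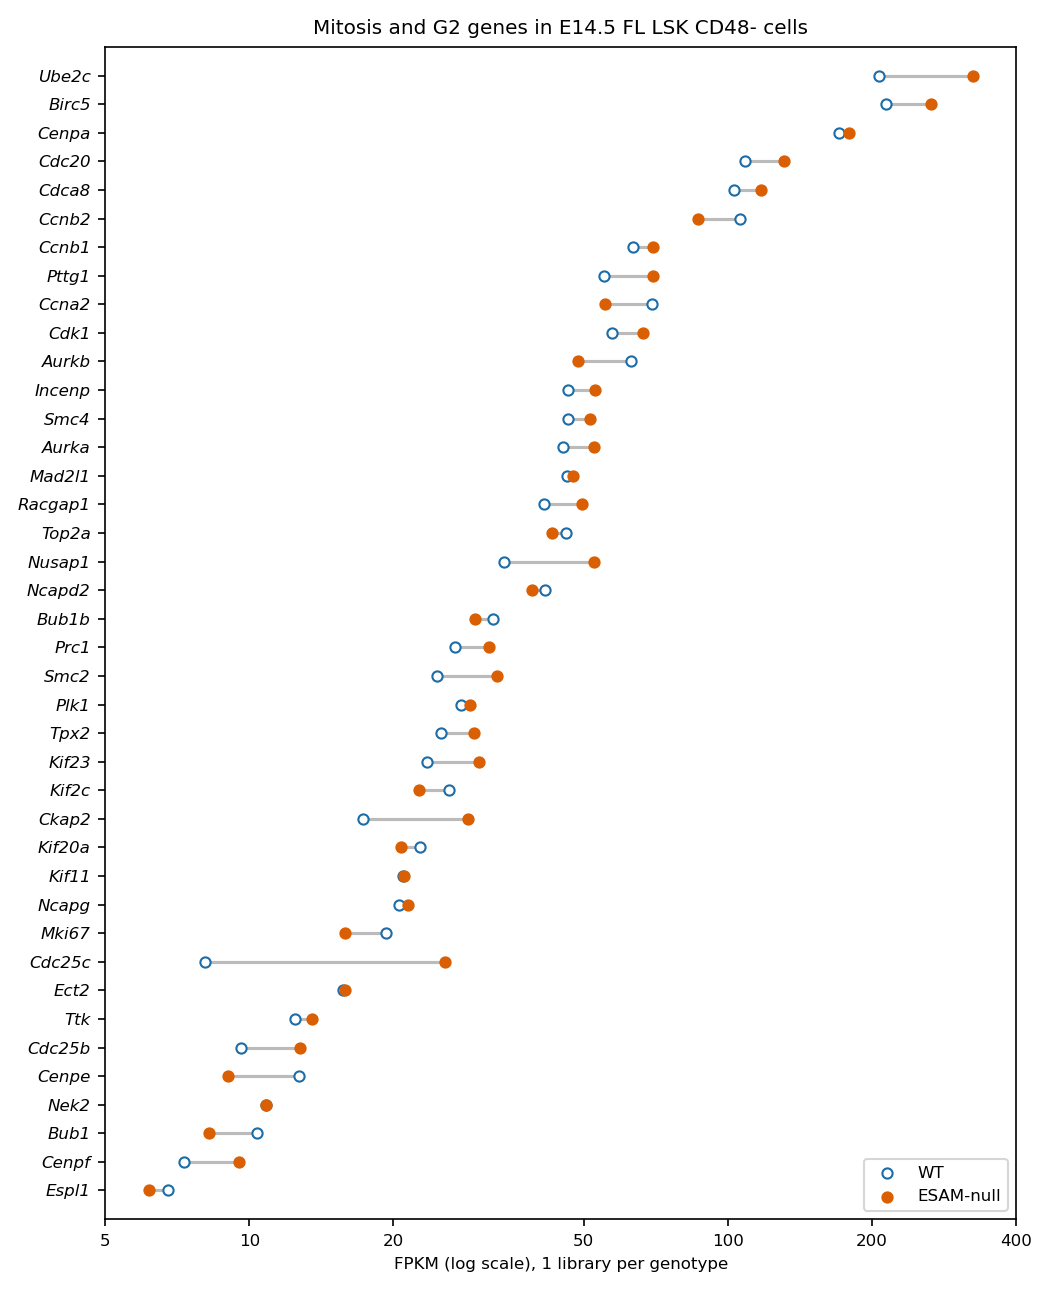
FPKM of each of the 40 genes (log axis) in the WT and the ESAM-null library, 1 point per library, with genes ordered by mean level. All 40 genes stand at 5 FPKM or more in both libraries, and the points of a gene lie close together except for Cdc25c.

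**Figure D3:**
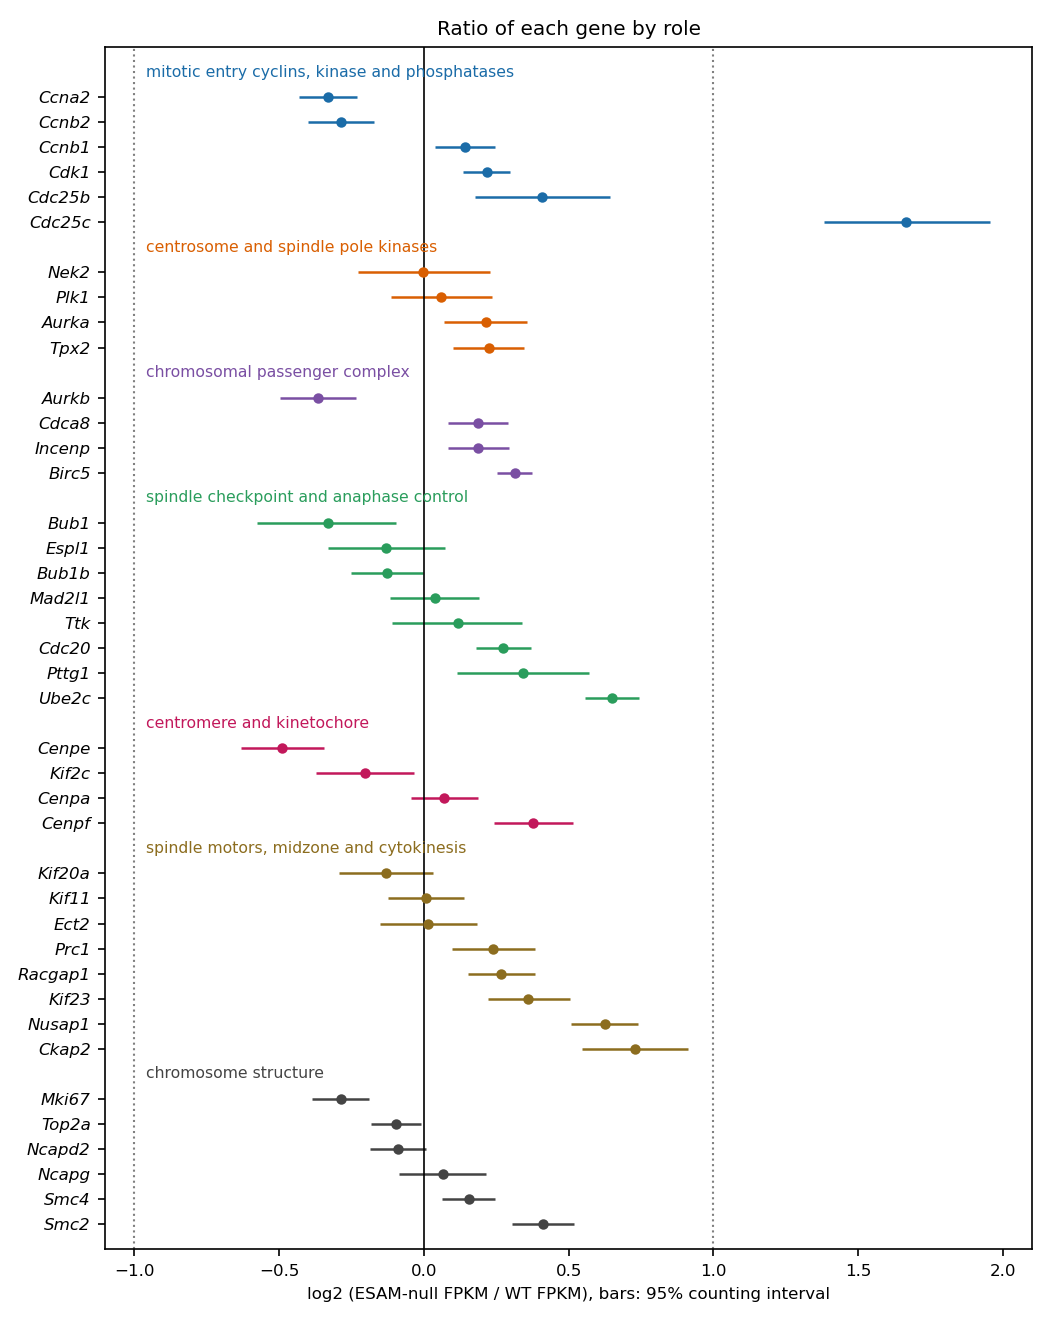
Ratio of the ESAM-null to the WT level (log2 axis) for each gene, with bars for the 95% counting interval. Cdc25c, at 1.66, is the 1 gene past 2-fold, and rescaling both libraries to the same total moves every point by -0.28.

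Among the genes of mitotic entry, Cdc25c stood apart. Cdc25c, which removes the inhibitory phosphates from Cdk1, stood at 8.07 FPKM in the WT cells and 25.6 FPKM in the null cells, 3.17-fold higher (interval 2.603 to 3.873). This was the widest difference of the 40, from about 132 and 455 reads. Of all genes at 10 FPKM or more in either library, 0.697% were at least 3-fold higher. Cdc25c reaches 10 FPKM only in the ESAM-null library, so that share does not measure how rare its ratio is. Its relative Cdc25b stood at 9.63 and 12.8 FPKM, 1.33-fold higher (1.13 to 1.56). Cdc25a, the remaining phosphatase of the family and not one of the 40, stood at 24.6 and 25.4 FPKM. The level of Cdc25c was therefore 0.838 of that of Cdc25b in WT and 2.004 times it in ESAM-null. Cdc25c lies on chromosome 18 from 34732993 to 34751533 (mm10), and 623 of its exonic bases overlap Gm3550 on the opposite strand. The library kit is not stated to keep strand, so reads of the overlap cannot be assigned to one gene. Of 1871 stretches of 75 bases in its transcripts that have a RefSeq partner, 0 occur on either strand in a transcript of another gene, so the overlap lies in its other annotated transcripts.

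The cyclins and their kinase differed by small amounts and not in one direction. Cdk1, the kinase itself, stood at 57.1 FPKM in the WT cells and 66.4 FPKM in the null cells, 1.16-fold higher (1.099 to 1.229). Ccnb1, cyclin B1, stood at 63.3 and 69.9 FPKM, 1.103-fold higher (1.03 to 1.19), and 35.2% of its 75-base stretches also occur in pseudogenes. Ccnb2, the cyclin B2 gene whose CCAAT series is printed above, stood at 105.8 and 86.8 FPKM, 1.22-fold lower (1.13 to 1.32). Ccna2, cyclin A2, stood at 69.5 and 55.3 FPKM, 1.26-fold lower (1.17 to 1.35). Of its 75-base stretches, 15.2% are shared with Exosc9 on the opposite strand. The level of Ccnb2 was 1.67 times that of Ccnb1 in WT and 1.24 times in ESAM-null. For the 6 entry genes the log2 ratios had a median of 0.18, and -0.10 after rescaling.

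The kinases of the centrosome and spindle pole were close to even. Plk1, which acts at centrosomes and kinetochores, stood at 27.7 FPKM in the WT cells and 28.9 FPKM in the null cells, with an interval that included 1 (0.925 to 1.18). Nek2, which separates the centrosomes, stood at 10.8 FPKM in both. Aurka, the pole kinase, stood at 45.2 and 52.4 FPKM, 1.16-fold higher (1.05 to 1.28). Tpx2, its activator, stood at 25.2 and 29.4 FPKM, 1.17-fold higher (1.07 to 1.27). Activator and kinase kept their proportion, with Tpx2 at 0.558 of the Aurka level in WT and 0.561 in ESAM-null. The log2 ratios of the 4 pole genes had a median of 0.14, and of -0.14 after rescaling.

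The chromosomal passenger complex corrects faulty attachments, and its kinase differed from its other subunits. Aurkb, the kinase, stood at 62.6 FPKM in the WT cells and 48.6 FPKM in the null cells, 1.29-fold lower (1.18 to 1.41). Incenp, the scaffold that activates it, stood at 46.4 and 52.8 FPKM, 1.14-fold higher (1.06 to 1.23). Aurkb was thus at 1.35 times the Incenp level in WT and at 0.920 of it in ESAM-null. Birc5 (survivin), which brings the complex to the centromere, stood at 214 and 266 FPKM, 1.24-fold higher (1.19 to 1.30). Cdca8 (borealin), its partner, stood at 102.8 and 117 FPKM, 1.14-fold higher (1.06 to 1.22). The 4 genes summed to 425.9 FPKM in the WT cells and 484.4 FPKM in the null cells, their median log2 ratio being 0.19, and -0.09 after rescaling.

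Checkpoint genes and genes of anaphase control differed from each other in level more than between libraries. Of the checkpoint genes, Mad2l1, which blocks Cdc20, stood at 46.2 FPKM in the WT cells and 47.4 FPKM in the null cells. Bub1b, a further part of that inhibitor, stood at 32.3 and 29.6 FPKM. Ttk, the kinase that starts the signal, stood at 12.4 and 13.5 FPKM. Bub1, a kinase of the kinetochore, stood at 10.4 and 8.24 FPKM, 1.26-fold lower (1.07 to 1.49).

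Of the genes that trigger anaphase, Ube2c and Cdc20 were among the most abundant of the 40. Ube2c, whose promoter letters are printed above, stood at 207 FPKM in the WT cells and 324.6 FPKM in the null cells, 1.57-fold higher (1.47 to 1.67). Cdc20, the activator of the anaphase promoting complex, stood at 108.5 and 131 FPKM, 1.21-fold higher (1.13 to 1.29). Pttg1 (securin), which holds separase inactive, stood at 55.1 and 69.8 FPKM, 1.27-fold higher (1.08 to 1.48). Espl1 (separase), the protease that cuts cohesin, was among the least abundant, at 6.77 and 6.17 FPKM. Securin was at 8.15 times the separase level in WT and at 11.3 times in ESAM-null. The 8 checkpoint and anaphase genes summed to 478.7 and 630.5 FPKM, with a median log2 ratio of 0.08, and -0.20 after rescaling.

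Centromere and kinetochore genes held both the lowest ratio and one of the highest levels. Cenpa, the histone variant that marks centromeres, stood at 170.4 FPKM in the WT cells and 178.7 FPKM in the null cells. Cenpe, the motor that carries chromosomes to the spindle equator, stood at 12.7 and 9.02 FPKM, 1.40-fold lower (1.27 to 1.55), the lowest ratio of the 40. Cenpf, a large kinetochore protein of G2, stood at 7.31 and 9.50 FPKM, 1.30-fold higher (1.18 to 1.43). Kif2c, which takes apart microtubule ends, stood at 26.1 and 22.6 FPKM. The median log2 ratio of the 4 was -0.07, and -0.35 after rescaling.

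Genes of the spindle midzone and cytokinesis were higher in ESAM-null in 7 of 8 cases on the deposited scale. Of all 7321 genes at 10 FPKM or more in either library, 4100 were higher there. The log2 ratios of the 8 genes had a median of 0.25 on that scale but of -0.02 after rescaling. Ckap2, a microtubule-stabilising protein, stood at 17.3 FPKM in the WT cells and 28.6 FPKM in the null cells, 1.66-fold higher (1.46 to 1.88). Nusap1, which links spindle microtubules to chromatin, stood at 34.03 and 52.4 FPKM, 1.54-fold higher (1.42 to 1.67). Kif23, a motor of centralspindlin, stood at 23.6 and 30.3 FPKM, 1.28-fold higher (1.17 to 1.42). Racgap1, the other centralspindlin subunit, stood at 41.3 and 49.6 FPKM, and its level was 1.75 times that of Kif23 in WT and 1.64 times in ESAM-null. Prc1 stood at 26.8 and 31.7 FPKM, and 21.8% of its 75-base stretches are shared with other genes. Kif11, the motor that pushes the poles apart, was even at 20.9 and 21.1 FPKM. Ect2, the exchange factor that sets the cleavage furrow, was even at 15.7 and 15.8 FPKM. Kif20a, a midzone motor, stood at 22.7 and 20.7 FPKM, and 26.2% of its 75-base stretches are shared with Cdc23 on the opposite strand.

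Genes of chromosome structure were divided. Smc2, a core subunit of condensin, stood at 24.7 FPKM in the WT cells and 32.9 FPKM in the null cells, 1.33-fold higher (1.23 to 1.43). Smc4, the other core subunit, stood at 46.3 and 51.5 FPKM, so that its level was 1.88 times that of Smc2 in WT and 1.57 times in ESAM-null. Ncapd2 and Ncapg are regulatory subunits of condensin I. Ncapd2 stood at 41.4 and 38.9 FPKM. Ncapg stood at 20.5 and 21.5 FPKM, and 17.3% of its 75-base stretches are shared with Lcorl on the opposite strand. Top2a stood at 46.0 and 43.0 FPKM, 1.07-fold lower. Mki67, which coats mitotic chromosomes and encodes the Ki-67 antigen used to mark cycling cells, stood at 19.3 and 15.8 FPKM, 1.22-fold lower (1.14 to 1.31). The median log2 ratio of the 6 was -0.01, and -0.29 after rescaling.

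On the deposited scale 20 of the 40 counting intervals lay above 1, 9 below 1 and 11 included 1. This balance does not hold after rescaling to the same total, when 10 ratios in all lie above 1. Intervals were computed for the 40 genes only. Without the share over all genes, these counts cannot be read as particular to the 40. The ratios were also set against properties of the transcripts. Over the 40 genes the log2 ratio had a Spearman rho of -0.23 with transcript length, and over 6612 genes at 10 FPKM or more it was -0.35. The 10 genes with transcripts under 2000 bases had a median log2 ratio of 0.20, and the 12 over 4000 bases one of 0.01. With mean FPKM, rho was 0.18 over the 40 genes and 0.34 over all genes at 10 FPKM or more. The part of length and level in the ratios was not tested.

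**Figure D4:**
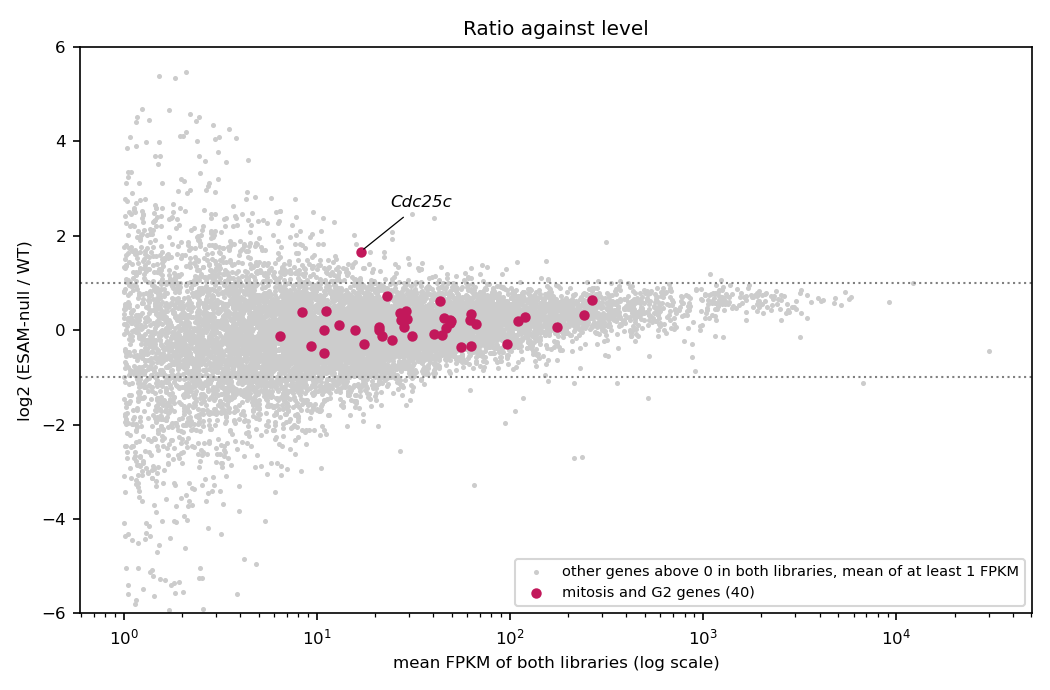
Ratio of the libraries, ESAM-null over WT (log2 axis), against mean FPKM (log axis) for 11337 genes, with the 40 mitotic genes marked, and 14 points outside the axis range. The mitotic genes lie in a narrow band around 0, with Cdc25c above it at 1.66.

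Other genes of the same processes, listed by function, were read on the same scale. Of 35 other kinetochore and centromere genes, 2 were past 2-fold on the lower side and 2 on the higher side. Pmf1, the highest of them by mean level, stood at 118.7 and 207.4 FPKM. The lower genes were Zw10, at 20.6 FPKM in the WT cells and 8.23 FPKM in the null cells, and Cenpb, at 11.8 and 5.19 FPKM. The higher genes were Cenpk, at 24.1 and 51.8 FPKM, and Cenpl, at 11.5 and 26.9 FPKM. After rescaling the counts were 3 lower and 0 higher. Of 34 other spindle and cytokinesis genes, 4 were lower by 2-fold or more and 1, Kif14, was higher, at 1.06 and 2.38 FPKM. The lower genes were Spag5, at 14.545 and 6.42 FPKM, Cit, at 6.01 and 2.32 FPKM, Cep192, at 4.91 and 1.66 FPKM, and Iqgap3, at 3.68 and 1.80 FPKM. Haus4, of the augmin complex and the highest by mean level, stood at 89.5 and 100.4 FPKM. After rescaling these counts were 4 and 0.

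Of 17 other genes of mitotic entry, 0 were lower by 2-fold or more and 1 was higher. That gene was Cks2, a small subunit of Cdk complexes, at 242.5 FPKM in the WT cells and 502.1 FPKM in the null cells, 2.07-fold higher, and it lay within 2-fold after rescaling. Cks1b, its close relative and the highest of the list by mean level, stood at 391 and 485.5 FPKM. Ncaph, the kleisin of condensin I, stood at 28.3 and 12.1 FPKM, 2.33-fold lower, and was the 1 gene past 2-fold of 4 other condensin subunits. Its ratio lay below those of Ncapd2 and Ncapg, its partners in that complex. Of 14 cohesin genes 1 was lower, Mau2, a loader of cohesin, at 22.3 and 10.2 FPKM, and after rescaling 3 were lower. Smc1a, the most abundant cohesin gene, stood at 84.8 and 90.2 FPKM. Ncaph2, the most abundant of the other condensin genes, stood at 60.9 and 86.6 FPKM.

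Among 16 genes of the anaphase promoting complex 0 were past 2-fold in either direction, with a median log2 ratio of 0.07. Anapc13, the most abundant, stood at 258 and 394 FPKM. The same was true of 18 regulators of cell cycle genes, FoxM1, B-Myb, MuvB and E2F among them, with a median of 0.03. Foxm1 stood at 16.2 FPKM in the WT cells and 10.3 FPKM in the null cells, and Mybl2, which encodes B-Myb, at 18.7 FPKM in both. Tfdp1, the partner of the E2F factors, was the most abundant, at 150.5 and 169.2 FPKM. Among 28 S phase genes 0 were past 2-fold, with a median of 0.20. Pcna, the sliding clamp of DNA polymerase, stood at 269.6 and 335 FPKM. Among 9 p53 and Cdk inhibitor genes 0 were past 2-fold, and Cdkn1c, the inhibitor p57, stood at 123 and 134 FPKM.

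**Figure D5:**
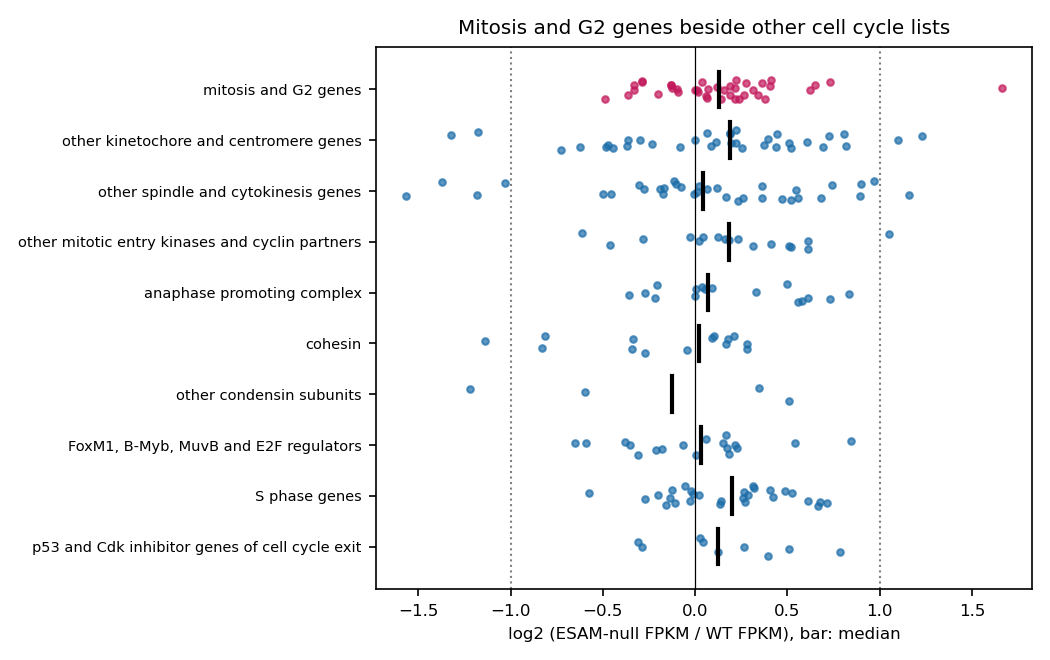
Ratio of the libraries, ESAM-null over WT (log2 axis), for the genes of each related list beside the 40 mitotic genes, 1 point per gene, without the replication-dependent histone genes. Medians of the related lists lie between -0.13 for other condensin subunits and 0.20 for S phase genes.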

How the data were processed

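One library of WT and one of ESAM-null E14.5 FL LSK CD48- cells were sequenced after SMART-Seq v4 amplification as 75-base single-end reads. Per the labels, the authors aligned reads with TopHat2 2.0.13 and Bowtie2 2.2.3 (SAMtools 0.1.19) to mm10 and deposited FPKM values from Cuffnorm 2.2.1. The sources used here do not give the annotation, the treatment of reads with several matches or the normalization setting of Cuffnorm. The labels mention culture in methylcellulose for the sorted cells, and the values are described here as those of the sorted cells.

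Ratios are ESAM-null over WT on the deposited FPKM, with no pseudocount, for genes at 1 FPKM or more in either library. A gene was counted as higher or lower past 2-fold. Approximate reads were recovered from the steps between low values and GENCODE M21 transcript lengths, and 70.5% and 71.7% of the low genes checked lay within 0.05 of a whole read. The 95% intervals are exact and cover counting error only. All 40 members were named. In the related lists, genes past 2-fold (at most the 6 highest) and the gene of each list with the highest mean FPKM were named. Foxm1, Mybl2 and Cdc25a are outside this rule and were picked with values in view. The members and lists were chosen with earlier results of these data known. Alternatives changed the pseudocount, the low-value filter, the threshold, the scaling and the promoter window. Python 3.11.15, numpy 2.4.6, pandas 2.3.3 and scipy 1.17.1 were used, and the code was tested on simulated data.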

Additional observations from a re-analysis of the deposited data

How the results depend on the processing

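No gene of the 40 changed the side of 2-fold under another scaling or pseudocount. At a 1.5-fold threshold 4 were higher (Cdc25c, Ckap2, Ube2c and Nusap1) and 0 lower. The median log2 ratio of the 40 was 0.13, and it was 0.12 with a pseudocount of 1, 0.11 with median scaling, 0.14 with upper-quartile scaling, 0.14 with a trimmed mean and -0.15 after rescaling both libraries to the same total. That rescaling moved all log2 ratios by -0.28, and among all genes it moved the lower share of those past 2-fold from 63.2% to 77.1% (2210 lower and 657 higher, against 1540 and 895). At a minimum of 0.1 FPKM 2868 genes were lower and 1214 higher, and at 5 FPKM 639 and 343. With 1 FPKM required in both libraries 761 were lower and 437 higher. At 1.5-fold 2632 and 2095 genes passed, and at 3-fold 877 and 490. The CHR share of the windows was 42.9% when only the 150 bases before the start were read, against 9.70% of all windows there. No paired analysis was possible because each genotype has 1 library, and for the same reason no replicate could be left out. The fewest reads behind a value of the 40 genes were about 132, for Cdc25c in WT.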

Other observations

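Replication-dependent histone genes, whose transcripts mostly lack a poly(A) tail and whose copies are nearly identical, varied more than the mitotic genes. Of 11 genes at 1 FPKM or more, 2 were lower by 2-fold or more in the null library and 3 were higher, and after rescaling 3 were lower and 2 higher. Most of these stood near 1 FPKM or below in at least 1 library. Among histone genes at 5 FPKM or more in either library, 0 were lower and 2 higher. Hist1h4d, the most abundant, stood at 700.3 FPKM in WT and 858 FPKM in the null library. Hist1h4i, at 35.1 and 81.5 FPKM, Hist1h2ag, at 1.2003 and 5.52 FPKM, and Hist1h3c, at 0.390 and 3.58 FPKM, were the higher genes. Hist1h3b, at 1.04 and 0.480 FPKM, was lower, and Hist2h3b stood at 1.04 FPKM in WT and was listed at 0 in the null library. Cd48, whose protein the gate excludes, stood at 16.6 FPKM in WT and 22.0 FPKM without ESAM.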
